A study of Mus musculus with 12 samples.

Results

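The genes followed here encode surface proteins that are held in the membrane by a glycosylphosphatidylinositol (GPI) lipid anchor: 4 genes of the Ly6 family (Ly6a, Ly6c1, Ly6c2 and Ly6e) together with Thy1, Cd48, Cd52, Cd55, Cd24a and Prnp. They were taken from the count table by gene symbol and are 10 of its 14323 symbols. The choice was made with earlier results of these data known. Expression was measured in naive CD8+ T cells, sorted from spleen as TCRβ+CD8+CD62L+CD44- cells of 3 wild type mice and kept for 6 h at 100000 cells per well. The wells were coated with 2.5 µg/ml of the anti-CD3ε antibody 145-2C11 or its isotype control, and at the same concentration with 2C7, an agonistic antibody to LAIR-1, or its isotype control. LAIR-1 is an inhibitory receptor for collagen. This gave 4 groups, each with 1 library from each of the 3 mice and 12 libraries in all: unstimulated with isotype, unstimulated with anti-LAIR-1, anti-CD3 with isotype, and both antibodies together. The comparisons ask what the T cell receptor signal does to these genes, and whether LAIR-1 ligation changes that response.

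A GPI anchor is built on a lipid in the endoplasmic reticulum and joined to the end of the protein in place of a transmembrane segment, so that the protein sits only in the outer leaflet of the membrane and lies in cholesterol-rich domains near kinases of the Src family. Ly6 proteins are small, cysteine-rich proteins of this kind that are widely used to tell apart subsets of lymphocytes and stem cells, and several of them respond to interferon. THY1, CD48 and CD52 are abundant on resting mouse T cells, whereas LY6A (Sca-1) is a known marker of their activation.

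Library totals ranged from 1781218 to 7725545 counts, and the medians were 2304214 in the unstimulated isotype group, 3548881 with anti-LAIR-1 alone, 4883760 with anti-CD3 and isotype, and 6204054 in the group with both antibodies. Levels are given as TMM-normalised CPM (counts scaled to the library's size), and 3 counts in a library correspond to 0.388 to 1.68 CPM. Mitochondrial genes took 17.6% to 20.9% of the counts in unstimulated libraries and 11.5% to 13.2% in anti-CD3 libraries. The 8 CD8 T cell markers in the table were detected in every group, with a summed level of 5351 to 5818 CPM in unstimulated isotype libraries and 2149.8 to 2340.0 CPM in anti-CD3 isotype libraries. The part of these shifts in the results below was not tested. Summed markers of CD4 T cells, NK cells, dendritic cells, myeloid cells and platelets stayed at or under 6.11 CPM in each library.

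The 4 Ly6 genes lie within 156.9 kb of chromosome 15 (mm10, GENCODE M21). Ly6e is at chr15:74955051-74959905 on the plus strand, and Ly6a (chr15:74994877-74998031), Ly6c1 (chr15:75044018-75048830) and Ly6c2 (chr15:75108158-75111970) are on the minus strand. The other genes are scattered: Thy1 at chr9:44043384-44048579, Cd48 at chr1:171682009-171705258, Cd24a at chr10:43578284-43584265 and Prnp at chr2:131909928-131938429, all on the plus strand, and Cd52 at chr4:134082448-134095082 and Cd55 at chr1:130439027-130462744 on the minus strand. Reads were counted near the polyadenylated ends of transcripts, and reads that fitted several places equally well were discarded, so the likeness of these ends bears on each count. Over the last 500 nt, Ly6c1 and Ly6c2 were identical at 487 of 496 aligned positions (98.2%), and their identity with Ly6a was 87.9% and 87.2%. Of the 60-nt windows in that stretch, 24.1% of those in Ly6c1 and 28.5% of those in Ly6c2 also occurred in another gene, against 3.7% in Ly6a, 10.5% in Cd55 (with its neighbour Cd55b) and 17.1% in Prnp. No window of Ly6e, Thy1, Cd48 or Cd52 was shared, so the counts of Ly6c1 and Ly6c2 are the least certain of the 10. Cd52 and Cd55 overlap genes on the opposite strand (Crybg2 and Gm16083), Cd48 and Prnp overlap genes on the same strand (Gm37010 and Prn), and whether counting used the strand was not given in the sources used here.

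RefSeq promoter sequence (GRCm38.p6, 250 bases before to 50 after the start) was matched for 5 of the 10 genes. Those of Cd55 (chr1:130462695-130462994, minus strand) and Cd48 (chr1:171681742-171682041, plus strand) are shown, because these are the genes with a promoter in that table whose changes were tested. They are printed on the strand of the gene, with CG dinucleotides in capitals.
Cd55: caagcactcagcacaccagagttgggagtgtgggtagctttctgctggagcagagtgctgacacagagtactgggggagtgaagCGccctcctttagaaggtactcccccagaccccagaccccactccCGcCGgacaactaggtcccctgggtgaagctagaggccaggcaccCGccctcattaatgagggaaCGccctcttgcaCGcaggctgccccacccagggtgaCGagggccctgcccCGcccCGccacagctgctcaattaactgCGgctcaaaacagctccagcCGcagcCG
Cd48: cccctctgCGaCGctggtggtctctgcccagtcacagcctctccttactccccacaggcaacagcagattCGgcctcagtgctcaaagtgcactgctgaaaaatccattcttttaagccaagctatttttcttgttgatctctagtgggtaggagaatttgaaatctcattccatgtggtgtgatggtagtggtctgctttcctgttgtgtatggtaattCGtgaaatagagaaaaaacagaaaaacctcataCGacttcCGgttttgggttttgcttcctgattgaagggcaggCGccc
The Cd55 window holds 12 CG dinucleotides and is 63.3% G and C, and 39.6% of all 32851 promoters of that length hold as many. The Cd48 window holds 7, the median of all promoters, and is 47.3% G and C. Neither window holds TTCNNNGAA (the gamma-activated GAS motif, in 8.3% of all promoters), GAAANNGAA (the core of the interferon-stimulated response element, in 8.6%), TGANTCA (the AP-1 motif, in 7.8%) or TGACGTCA (the cyclic AMP response element, in 1.8%) on either strand. Among the promoters of the 5 genes, Prnp alone held a match, to the AP-1 motif.

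With anti-CD3, all 7 of the 10 genes that had enough counts to be tested changed: Ly6a and Cd24a rose, and Ly6e, Thy1, Cd48, Cd52 and Cd55 fell. This was so with isotype and with anti-LAIR-1 (adjusted p under 0.05, by the quasi-likelihood test of edgeR and Benjamini-Hochberg adjustment across the genes tested). For all 7 genes the groups did not overlap in either comparison, from which it follows that each mouse moved the same way. The background was high: 71.3% of the 8690 genes tested with isotype were called (35.3% higher and 36.1% lower), as were 72.7% of the 9000 tested with anti-LAIR-1 (36.4% higher and 36.3% lower). In the first comparison 73.5% of genes had groups that did not overlap, and in the second 74.9%. The median log2 fold change of the 7 genes was -1.26 with isotype and -1.32 with anti-LAIR-1, against -0.03 and -0.04 over all genes tested. In bulk samples such as these, fewer cells of a type and less RNA per cell cannot be told apart. Levels in CPM are shares of a library, so these changes are relative to its other RNA, and the amount of RNA per cell was not tested.

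**Figure D1:**
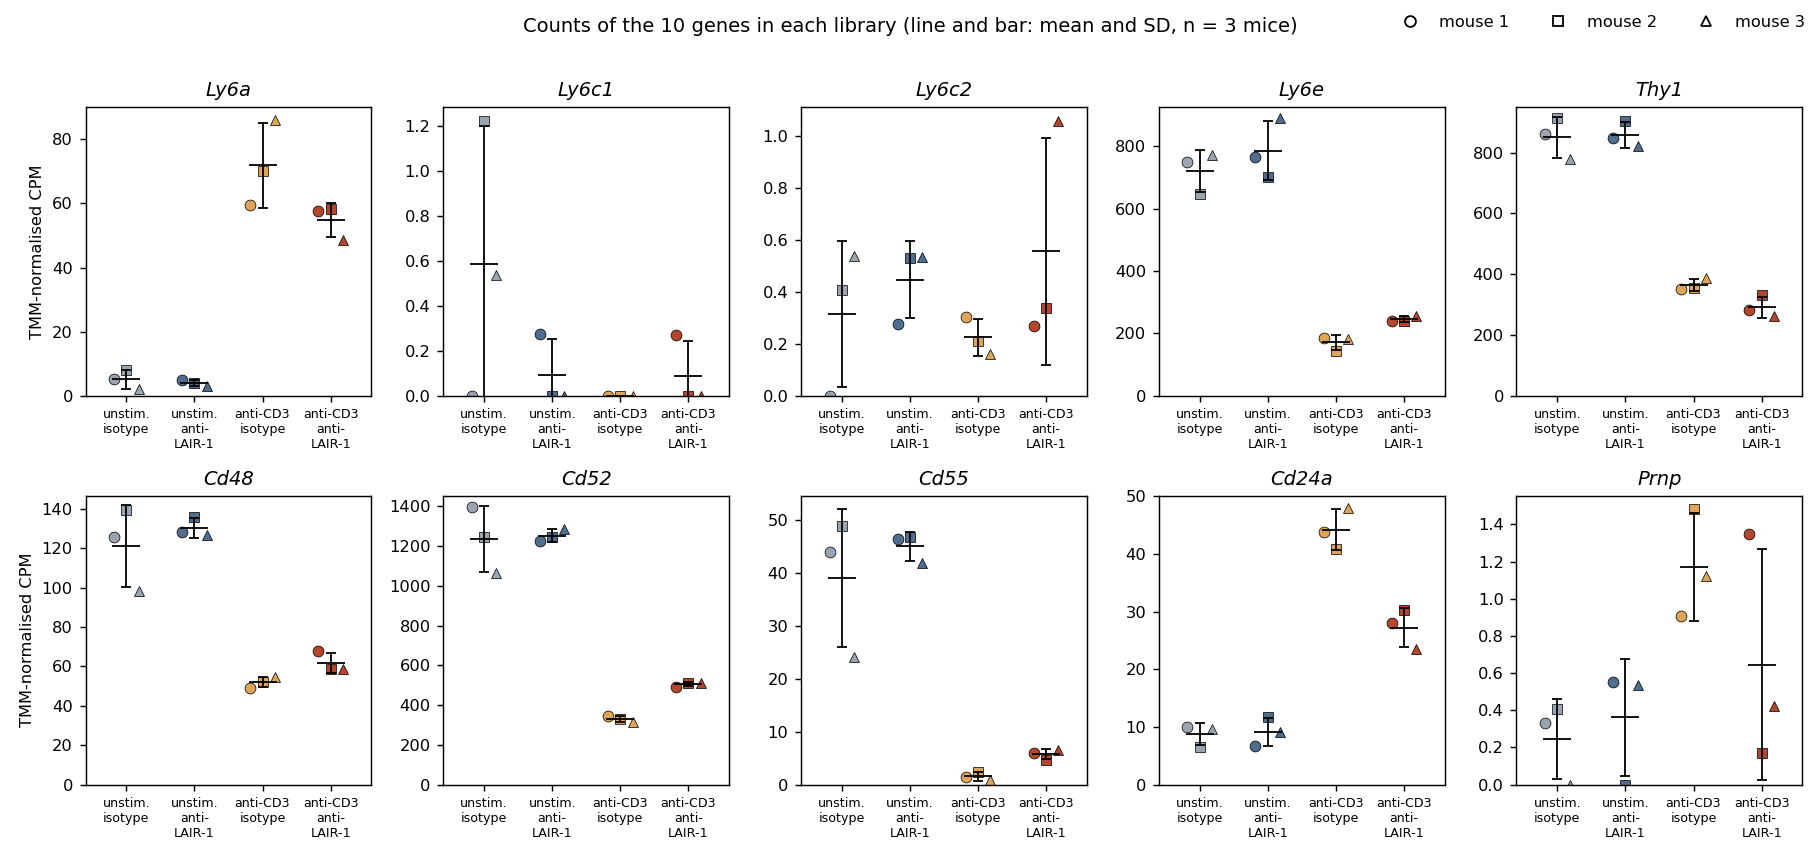
TMM-normalised CPM of each gene in the 12 libraries, also for the 3 genes too low to test, by group on the horizontal axis. Each mouse has a point, and a line and bar give the mean and SD (n = 3 mice). Ly6a and Cd24a sit higher in all anti-CD3 libraries than in all unstimulated ones, and Ly6e, Thy1, Cd48, Cd52 and Cd55 sit lower.

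Among the Ly6 genes, Ly6a (Sca-1) rose and Ly6e, which encodes a broadly expressed and interferon-responsive family member, fell. Ly6a was at 5.28, 8.15 and 2.15 CPM in the unstimulated isotype libraries of mice 1, 2 and 3, and at 59.5, 70.0 and 85.9 CPM with anti-CD3 and isotype. The groups were far apart, with means of 5.19 ± 3.00 and 71.8 ± 13.3 CPM (SD, n = 3), and the rise fitted by edgeR, as for all fold changes given here, was 12.9-fold (log2 fold change 3.69, SE 0.24, adjusted p = 3.13e-12). Under anti-LAIR-1, Ly6a went from 4.98, 3.97 and 2.94 CPM to 57.5, 58.4 and 48.7 CPM. That rise was 13.8-fold (log2 fold change 3.78, SE 0.19, adjusted p = 1.70e-12).

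Ly6e was abundant in resting cells, at 749, 646 and 772 CPM with isotype. With anti-CD3 it was at 186, 145 and 183 CPM, below every unstimulated library (4.32-fold lower, log2 fold change -2.11, SE 0.10, adjusted p = 1.70e-14). With anti-LAIR-1 it went from 768, 703 and 889.95 CPM to 240.0, 239 and 256 CPM, which is 3.23-fold lower (log2 fold change -1.69, SE 0.08, adjusted p = 1.22e-12).

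Ly6c1 and Ly6c2, which encode the LY6C antigens used to subdivide memory and effector CD8+ T cells, had few counts in these sorted naive cells. Reads that fitted both genes equally well were discarded, so these counts cover uniquely placed reads only. Ly6c1 had 7 counts over all 12 libraries, with 8 libraries at 0 and at most 3 counts in one. Its group with anti-CD3 and isotype had none among 14917784 counts, which allows a level of up to 0.201 CPM of uniquely placed reads (counting error only). Ly6c2 had 19 counts in all and at most 5 in a library. Neither passed the filter on low counts, so no change is given for them.

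Thy1 encodes the T cell surface glycoprotein THY1 (CD90), a pan-T-cell marker in the mouse. It was at 859, 912 and 777 CPM unstimulated with isotype, and at 350.5, 353 and 386 CPM with anti-CD3. The highest stimulated library was below the lowest unstimulated one, a 2.40-fold fall (log2 fold change -1.26, SE 0.09, adjusted p = 9.42e-12). Under anti-LAIR-1 it went from 849, 904 and 822 CPM to 281, 330.1 and 262 CPM (2.96-fold lower, log2 fold change -1.57, SE 0.08, adjusted p = 3.33e-12).

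Cd48 encodes an immunoglobulin-superfamily protein of the SLAM group that binds CD2 and CD244. Its level was 126, 139 and 98.5 CPM unstimulated with isotype and 49.2, 52.3 and 54.8 CPM with anti-CD3. Here too the groups were separate, and the fall was 2.39-fold (log2 fold change -1.26, SE 0.13, adjusted p = 7.17e-09). With anti-LAIR-1 the values were 128, 136 and 127 CPM before and 67.7, 58.6 and 58.8 CPM after anti-CD3 (2.11-fold lower, log2 fold change -1.08, SE 0.10, adjusted p = 6.79e-09).

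Cd52 and Cd24a both encode very short, heavily glycosylated mucin-like proteins, and they moved in opposite directions. Cd52, the mouse counterpart of the antigen that alemtuzumab binds in humans, was at 1395, 1246 and 1067 CPM unstimulated with isotype and at 346, 329 and 317 CPM with anti-CD3. These groups did not overlap, and the fall was 3.84-fold (log2 fold change -1.94, SE 0.10, adjusted p = 1.72e-14). Under anti-LAIR-1 Cd52 went from 1225, 1246 and 1287 CPM to 494, 512 and 511 CPM (2.49-fold lower, log2 fold change -1.32, SE 0.07, adjusted p = 1.05e-12).

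Cd24a encodes heat-stable antigen, which is high on B cells, immature thymocytes and erythroid cells and low on resting T cells. It was at 9.91, 6.52 and 9.68 CPM unstimulated with isotype and at 43.8, 40.8 and 48.0 CPM with anti-CD3. All stimulated libraries were above all unstimulated ones, by 4.95-fold (log2 fold change 2.31, SE 0.21, adjusted p = 6.35e-10). With anti-LAIR-1 the values were 6.64, 11.7 and 9.08 CPM before and 28.0, 30.2 and 23.5 CPM after anti-CD3 (2.97-fold higher, log2 fold change 1.57, SE 0.20, adjusted p = 9.41e-07). The 5 B cell markers in the table summed to 6.11 to 10.2 CPM in the unstimulated isotype libraries and to 1.90 to 4.23 CPM with anti-CD3 and isotype. In the anti-LAIR-1 libraries they summed to 3.87 to 8.81 and 1.08 to 3.17 CPM, with Ebf1 at 0 in both of these groups and in the anti-CD3 isotype group. The 2 erythroid markers used (Beta-s, a beta-globin gene, and Alas2) summed highest in mouse 2 in each group, at 94.9 and 34.9 CPM with isotype and 169 and 58.2 CPM with anti-LAIR-1, and to between 0 and 3.64 CPM in mouse 1. The part of these markers in the Cd24a values was not tested.

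Cd55 encodes decay-accelerating factor, which protects cells from complement by dissociating its convertases and which binds the adhesion receptor CD97. It had the largest fall of the tested genes: 43.9, 48.9 and 24.2 CPM unstimulated with isotype became 1.51, 2.33 and 0.803 CPM with anti-CD3. These are 45 to 133 counts against 5 to 11, and the fall was 26.8-fold (log2 fold change -4.74, SE 0.34, adjusted p = 1.09e-11). Under anti-LAIR-1 Cd55 went from 46.5, 46.9 and 41.9 CPM to 5.92, 4.72 and 6.56 CPM, or 28 to 44 counts, which is 7.91-fold lower (log2 fold change -2.98, SE 0.17, adjusted p = 1.01e-11). The table lists its paralog Cd55b under the symbol Daf2, with 0 to 3 counts in each library.

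Prnp, which encodes the cellular prion protein, was too low to test. It had 36 counts in all 12 libraries and between 0 and 10 in each. Pooled by group, these were 2 counts unstimulated with isotype (0.284 CPM), 4 with anti-LAIR-1 alone (0.374 CPM), 17 with anti-CD3 and isotype (1.14 CPM) and 13 with both antibodies (0.691 CPM).

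**Figure D2:**
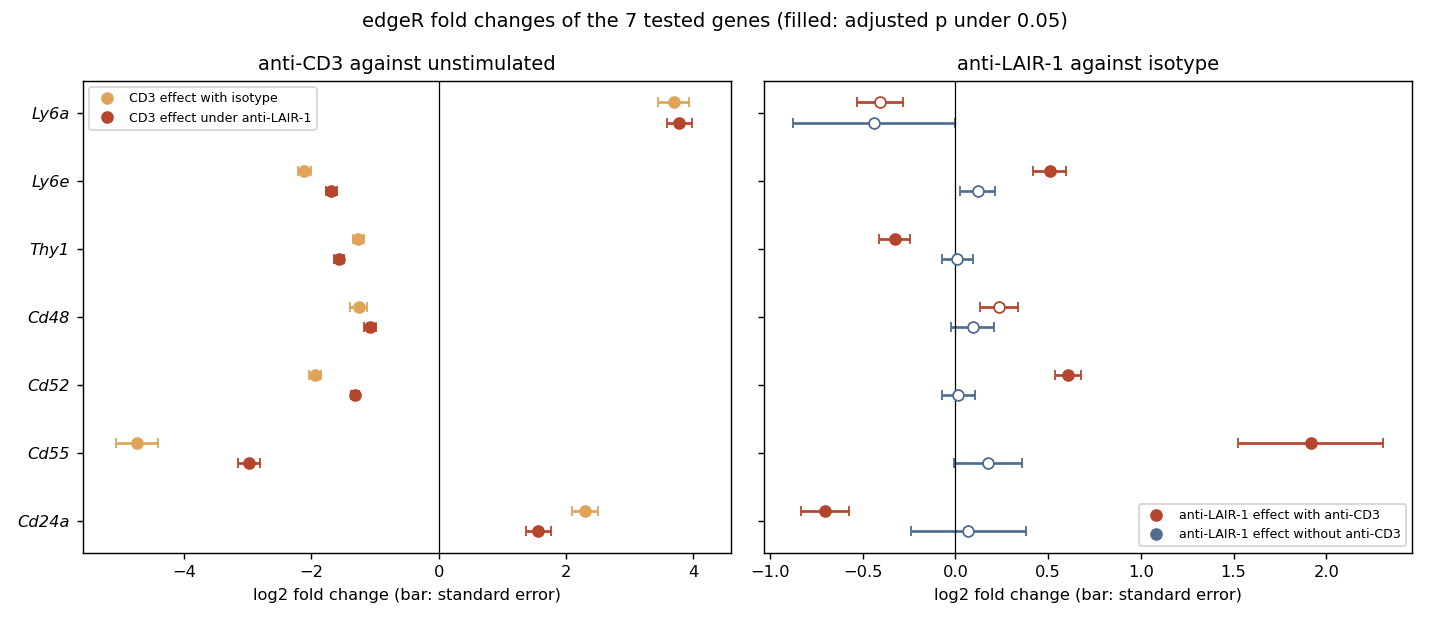
Log2 fold changes from edgeR (points) with their standard errors (bars) for the 7 tested genes, with filled points for an adjusted p under 0.05. One panel shows anti-CD3 against unstimulated, with isotype and under anti-LAIR-1 in different colours. The other shows anti-LAIR-1 against isotype, with and without anti-CD3. The anti-CD3 changes run from -4.74 for Cd55 to 3.78 for Ly6a, and the anti-LAIR-1 changes with anti-CD3 from -0.70 for Cd24a to 1.92 for Cd55.

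Anti-LAIR-1 changed 5 of the 7 tested genes in cells that also received anti-CD3. Cd55, Cd52 and Ly6e were higher than with isotype, and Cd24a and Thy1 were lower. Of all 8800 genes tested in this comparison, 5.76% were called (3.9% higher and 1.86% lower). For all 7 genes the isotype and anti-LAIR-1 values did not overlap, as for 24% of all genes tested. The same sign of the difference in all 3 mice follows from this and is not a separate result. The median log2 fold change of the 7 genes was 0.24, against 0.00 over all genes.

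The largest difference in this comparison was in Cd55, which had a mean of 1.55 ± 0.763 CPM with isotype and 5.74 ± 0.932 CPM with anti-LAIR-1 (3.77-fold higher, log2 fold change 1.92, SE 0.39, adjusted p = 0.00651). Within mice 1, 2 and 3 its log2 CPM differed by 1.69, 0.89 and 2.46. Both anti-CD3 groups stayed far below the unstimulated ones, so that the lowest unstimulated library (24.2 CPM) exceeded the highest with anti-CD3 and anti-LAIR-1 (6.56 CPM). This comparison rests on 5 to 11 counts in each isotype library, and DESeq2 gave it no adjusted p.

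Cd52 differed with the smallest adjusted p of the 5, at 330.4 ± 14.5 CPM with isotype and 506 ± 10.1 CPM with anti-LAIR-1 (1.52-fold higher, log2 fold change 0.61, SE 0.07, adjusted p = 3.46e-05). The gap was 0.51, 0.64 and 0.69 in the 3 mice on the log2 scale. For Ly6e the means were 171 ± 22.9 and 245 ± 9.82 CPM (1.42-fold higher, log2 fold change 0.51, SE 0.09, adjusted p = 0.00202), with differences of 0.37, 0.72 and 0.48.

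Cd24a, one of the genes that anti-CD3 raised, stood at 44.2 ± 3.61 CPM with isotype and at 27.2 ± 3.43 CPM with anti-LAIR-1 (1.63-fold lower, log2 fold change -0.70, SE 0.13, adjusted p = 0.00307). The mice differed by -0.64, -0.43 and -1.02. Thy1, which anti-CD3 lowered, was lower still with anti-LAIR-1, at 291 ± 35.0 CPM against 363 ± 19.6 CPM (1.25-fold, log2 fold change -0.33, SE 0.08, adjusted p = 0.0272). This call for Thy1 was lost when any of 4 of the 6 libraries was left out, namely isotype of mouse 2 (adjusted p = 0.0526) or mouse 3 (0.0984), or anti-LAIR-1 of mouse 1 (0.0885) or mouse 3 (0.104).

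Ly6a and Cd48 did not pass the threshold. Ly6a was at 71.8 ± 13.3 CPM with isotype and 54.8 ± 5.37 CPM with anti-LAIR-1 (log2 fold change -0.41, SE 0.12, adjusted p = 0.0589), with differences of -0.05, -0.26 and -0.81 in the 3 mice. It did pass without the filter on low counts (adjusted p = 0.00678) and without the isotype library of mouse 1 (adjusted p = 0.0212). Without the filter the estimate of Ly6a hardly moved (log2 fold change -0.41, SE 0.11). The edgeR adjusted p of each called gene was also smaller in that fit (7.39e-13 for Cd52), though not that of Cd48. Cd48 was at 52.1 ± 2.78 and 61.7 ± 5.23 CPM (log2 fold change 0.24, SE 0.10, adjusted p = 0.217). The summed CD8 T cell markers were also higher with anti-LAIR-1 in these anti-CD3 libraries, at 2659 to 3120.0 CPM against 2149.8 to 2340.0 with isotype, with 4 of the 8 called, and their part in these differences was not tested.

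**Figure D3:**
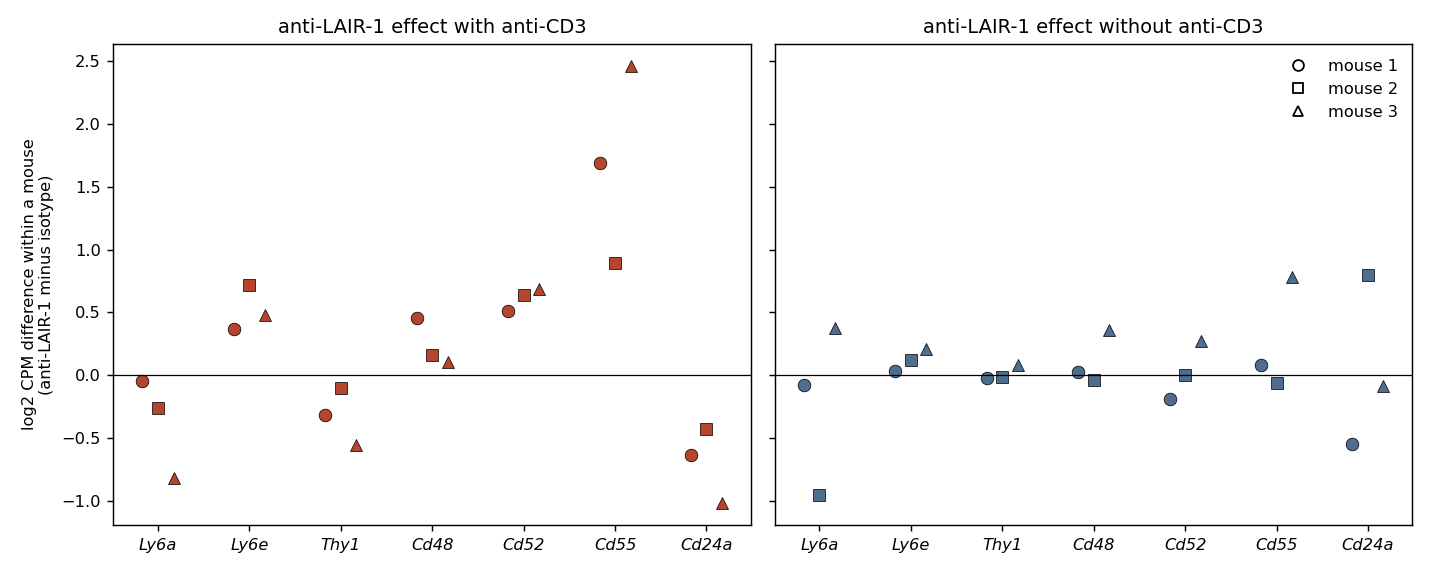
Log2 CPM with anti-LAIR-1 minus that with isotype within each mouse (a point per mouse), for the 7 tested genes with anti-CD3 and without it. With anti-CD3 all 3 points lie on the same side of 0 for each gene, as follows from groups that did not overlap. They run from -1.02 for Cd24a to 2.46 for Cd55. Without anti-CD3 the points lie on the same side for 1 of the 7 genes.

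Without anti-CD3, none of the 7 tested genes differed between anti-LAIR-1 and isotype (adjusted p = 0.997 for each in edgeR), and 0% of the 8770 genes tested were called. An unadjusted p under 0.05 was found for 384 of these genes and for none of the 7, and DESeq2 called 0 genes as well. No gene of the 7 had groups that did not overlap, against 9.66% of all genes. Log2 fold changes ran from -0.44 (SE 0.44) for Ly6a to 0.18 (SE 0.18) for Cd55. Their 95% intervals (normal approximation from the standard error) were narrow for the abundant genes, from -0.15 to 0.17 for Thy1, from -0.16 to 0.19 for Cd52 and from -0.06 to 0.30 for Ly6e. Those of the low genes were wide, from -1.29 to 0.42 for Ly6a and from -0.54 to 0.68 for Cd24a. The interval of Ly6a contained its log2 fold change of -0.41 with anti-CD3, and that of Cd24a did not contain its -0.70. This leaves out the error of the values with anti-CD3, so it is no test of a difference. The interaction test below did not call Cd24a. For Cd55 the interval was -0.18 to 0.53.

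The interaction, fitted over all 12 libraries, tested whether the effect of anti-LAIR-1 differed with and without anti-CD3. It was called for 2 of the 7 genes, Cd55 and Cd52, both with a greater rise under anti-CD3, while 2.07% of the 9223 genes tested were called (1.82% higher and 0.249% lower). The difference of differences for Cd52 was 0.60 on the log2 scale (SE 0.12, adjusted p = 0.00404), and for Cd55 it was 1.74 (SE 0.43, adjusted p = 0.0264). For Cd55 the call was lost in 7 of the 12 fits that each left out a library, with adjusted p = 0.0600 and 0.0770 without unstimulated isotype of mouse 1 or 2, 0.0588 without unstimulated anti-LAIR-1 of mouse 3, 0.0653 and 0.167 without anti-CD3 isotype of mouse 1 or 3, and 0.0552 and 0.0747 without anti-CD3 anti-LAIR-1 of mouse 1 or 3. It was also lost when libraries were thinned to the smallest total (1.31, adjusted p = 0.326). The other values were -0.77 for Cd24a (adjusted p = 0.251), 0.39 for Ly6e (adjusted p = 0.177), -0.33 for Thy1 (adjusted p = 0.205), 0.15 for Cd48 (adjusted p = 0.790) and 0.06 for Ly6a (adjusted p = 0.976). For these a difference between stimulated and unstimulated cells in the effect of anti-LAIR-1 was not shown.

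Other genes of GPI-anchored proteins were taken from a list of 76 symbols, of which 35 are in the table and most were too low to test. With anti-CD3 and isotype, 6 of 10 tested rose, 3 fell and 1 did not pass, where 35.3% of all genes tested rose and 36.1% fell. Cd160, a receptor for HVEM on CD8+ T cells, rose from 4.39 ± 0.467 to 274 ± 12.5 CPM (log2 fold change 5.93, SE 0.16, adjusted p = 6.92e-19). Sema7a, a semaphorin that binds integrins, went from 0, 1 or 2 counts a library (0.382 CPM on average) to 223 ± 12.1 CPM. Lypd6b, a relative of the Ly6 genes, went from 20.8 ± 3.87 to 0.620 ± 0.552 CPM, and Rtn4rl1, a receptor of the Nogo family, from 11.3 ± 2.61 to 0.466 ± 0.265 CPM, with 0 to 5 counts in each anti-CD3 isotype library. Bst2 (tetherin), an interferon-responsive restriction factor, rose from 6.73 ± 3.05 to 17.2 ± 1.83 CPM (log2 fold change 1.40, SE 0.29, adjusted p = 0.000197). Under anti-LAIR-1, 6 of 11 tested rose with anti-CD3 and 5 fell (36.4% and 36.3% of all genes tested), and the medians over the list were 1.54 with isotype and 1.05 with anti-LAIR-1.

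Between anti-LAIR-1 and isotype with anti-CD3, 3 of the 9 tested genes of this list were called, against 5.76% of all genes tested. Folr4, a folate receptor family member on T cells, was at 82.4 ± 11.6 CPM against 48.9 ± 7.32 (log2 fold change 0.75, SE 0.12, adjusted p = 0.00130). Nt5e, the ecto-enzyme CD73 that makes adenosine, was at 68.1 ± 6.54 against 43.1 ± 6.04 CPM (log2 fold change 0.67, SE 0.12, adjusted p = 0.00246). Sema7a was at 146 ± 26.2 against 223 ± 12.1 CPM (log2 fold change -0.61, SE 0.11, adjusted p = 0.00175). Cd160, in contrast, was at 277 ± 19.6 and 274 ± 12.5 CPM (log2 fold change 0.01, SE 0.08, adjusted p = 0.969). The list's median was 0.01, and none of its genes was called by edgeR without anti-CD3 (10 tested) or for the interaction (12 tested).

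**Figure D4:**
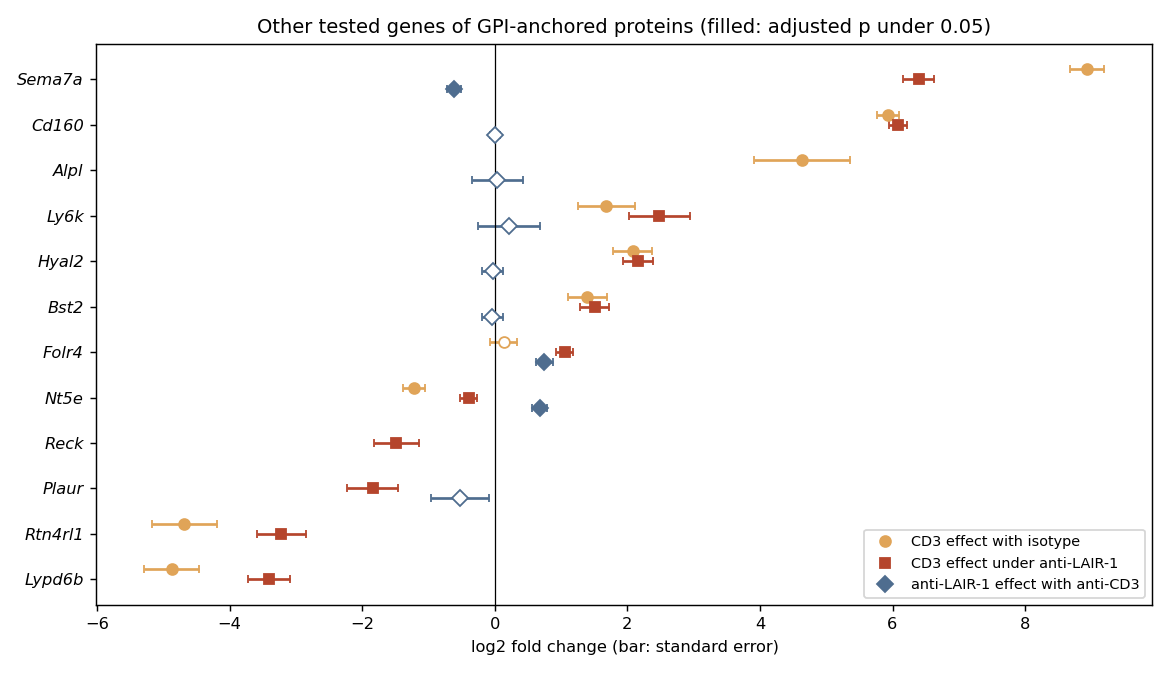
Log2 fold changes from edgeR with standard errors (bars) for the other tested genes of GPI-anchored proteins. They are for anti-CD3 against unstimulated with isotype, for the same under anti-LAIR-1 and, in cells with anti-CD3, for anti-LAIR-1 against isotype. Cd160 has a change of 5.93 in the first, 6.08 in the second and 0.01 in the last. Folr4, Nt5e and Sema7a are the called genes of the last.

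The machinery that builds GPI anchors was measured through 38 symbols, 35 of them in the table. With anti-CD3 and isotype, 11 of 29 tested rose, 6 fell and 12 did not pass, with a median of 0.10, so that the share called was below the 71.3% of all genes tested. Those that fell included Pigp, a subunit of the enzyme that starts anchor synthesis, from 90.0 ± 5.24 to 22.4 ± 4.01 CPM (log2 fold change -2.02, SE 0.14, adjusted p = 1.35e-11), and those that rose included Clptm1l, from 79.8 ± 6.41 to 279.6 ± 2.81 CPM. Piga, the catalytic subunit of that first enzyme, was at 8.61 ± 1.70 and 8.84 ± 2.30 CPM. With anti-LAIR-1, 13 of 29 rose with anti-CD3 and 7 fell, with a median of 0.40 (72.7% of all genes tested were called). Pigp was the 1 gene of 30 called between anti-LAIR-1 and isotype with anti-CD3, at 35.7 ± 3.16 against 22.4 ± 4.01 CPM (log2 fold change 0.64, SE 0.14, adjusted p = 0.0132), where 5.76% of all genes tested were called. None of the list was called without anti-CD3 or for the interaction.

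Partners that bind these proteins, and other regulators of complement, were followed through 14 symbols, 9 of them in the table. Cd97, the receptor bound by CD55, fell with anti-CD3 from 183 ± 14.1 to 16.5 ± 0.944 CPM with isotype (log2 fold change -3.50, SE 0.13, adjusted p = 1.04e-16). Cd2, the receptor bound by CD48, fell from 398 ± 36.5 to 172 ± 18.1 CPM (log2 fold change -1.24, SE 0.10, adjusted p = 1.43e-10). With anti-CD3, both were higher under anti-LAIR-1, Cd97 at 31.4 ± 3.75 CPM (log2 fold change 0.90, SE 0.15, adjusted p = 0.00134) and Cd2 at 258 ± 8.96 CPM (log2 fold change 0.57, SE 0.08, adjusted p = 0.000331). Both also passed the interaction test, at 0.81 (SE 0.17, adjusted p = 0.00933) and 0.57 (SE 0.12, adjusted p = 0.0120), so that 2 of the 5 tested genes of this list were called there, against 2.07% of all genes tested. In all, anti-CD3 raised 2 and lowered 3 of 5 tested with isotype and with anti-LAIR-1, where 71.3% and 72.7% of all genes tested were called.

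Interferon-stimulated genes were counted because Ly6a and Ly6e respond to interferon. With anti-CD3 and isotype, 5 of 17 tested rose and 11 fell, with a median of -1.28, against 35.3% and 36.1% of all genes tested. With anti-LAIR-1, 5 of 21 rose and 11 fell, against 36.4% and 36.3%. Between anti-LAIR-1 and isotype with anti-CD3, 4 of 18 were higher and none was lower, against 3.9% and 1.86% of all genes tested. These were Rtp4, at 6.51 ± 1.36 against 1.84 ± 0.783 CPM, Zbp1 (log2 fold change 0.92, adjusted p = 0.0243), Trim30a (log2 fold change 0.80, adjusted p = 0.00332) and Samhd1 (log2 fold change 0.70, adjusted p = 0.000572). Of the list, none of 19 was called by edgeR without anti-CD3, and Samhd1 was the 1 of 21 called for the interaction (0.56, SE 0.15, adjusted p = 0.0494), against 2.07% of all genes tested.

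Each tested gene was set beside the 3 genes whose log2 CPM followed it most closely over the 12 libraries, among 6400 genes with a mean of at least 50 counts per library. The 12 values share 3 mice and are dominated by the gap between unstimulated and anti-CD3 libraries, so these coefficients describe the pattern and carry no test. Cd55 was nearest to Trim59 (Pearson r = 0.994), Coro1a (0.989) and Sepp1 (0.988). Cd52 was nearest to Rac2 (0.996), Limd2 (0.995) and AI467606 (0.995), and Ly6e to Gm14085 (0.995), Txk (0.994) and Map1lc3b (0.994). For Cd48 they were Ctss (0.994), Hpcal1 (0.991) and Tmem66 (0.988), and for Thy1 they were Zcchc11 (0.987), Brd1 (0.987) and Arid4a (0.986). Among the genes that anti-CD3 raised, Ly6a was nearest to Rbm34, Mthfd1 and Lsg1 (each 0.991), and Cd24a to Bcl2l1 (0.988), Rbbp6 (0.982) and Gpr65 (0.981).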

How the data were processed

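The authors deposited unnormalized counts of reads for each gene symbol. Libraries were made by CEL-seq, sequenced on a NextSeq 500 and aligned to the mm10 transcriptome with BWA, and reads with several equally good positions were discarded. Collapsing of molecular identifiers was not given in the sources used here, and the upper limit for Ly6c1 covers counting error only. The intervals of log2 fold changes use the edgeR standard errors, which also include variation between libraries.

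Counts were compared with edgeR 4.0.16 (R 4.3.3, limma 3.58.1) after TMM normalization and filterByExpr, using the quasi-likelihood F-test. P-values were adjusted across the genes tested (Benjamini-Hochberg) at a threshold of 0.05. Each comparison of 2 groups used the 6 libraries of those groups, and the interaction used all 12. The comparisons share libraries. With 3 libraries a group an exact permutation test cannot reach 0.05, so none was used.

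Libraries with the same number come from the same mouse, per the labels. Deviations from group means correlated with a mean r of 0.0265 to 0.0891 between libraries of the same mouse. The values between mice (-0.0446 to -0.0133) follow from these, because deviations from a group mean sum to 0, and add no information. The variance between replicates was on average 3.81 to 5.62 times that of sampling counts alone. Because collapsing of molecular identifiers was not given, this cannot tell a repeat from a separate sample. Each library was taken as separate, per the labels.

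The 10 genes and all lists (other GPI-anchored proteins, GPI anchor synthesis, binding partners, interferon-stimulated genes and cell markers) were chosen with earlier results of these data known, and 2 listed genes are not reported here. All 10 genes are named, and from each list up to 4 called genes with the largest change per comparison and a few context genes. Similar genes were ranked by Pearson r of log2 CPM (prior count 2). Motifs were searched on both strands.

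Alternatives were DESeq2's size factors and upper quartile in edgeR, DESeq2 1.42.0, the mouse as a block, no filter, all 12 libraries in 1 fit, each library left out and, added after seeing the data, thinning to the smallest total. The fits were also run on simulated data with few changed genes and no mouse effect. That setting differs from the anti-CD3 comparisons, where most genes were called, and no result here rests on it.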

Additional observations from a re-analysis of the deposited data

Results flagged for a closer look

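The effect of anti-LAIR-1 differed with and without anti-CD3 for 2 of the 7 tested genes, by the interaction term of edgeR over all 12 libraries with Benjamini-Hochberg adjustment, which called 2.07% of the 9223 genes tested. For Cd52 the log2 difference of differences was 0.60 (SE 0.12, adjusted p = 0.00404), from a log2 fold change of 0.61 with anti-CD3 and 0.02 without it. For Cd55 it was 1.74 (SE 0.43, adjusted p = 0.0264), from 1.92 with anti-CD3 and 0.18 without it. The Cd55 call was lost in 8 of the 18 alternatives, 7 of them fits that each left out a library, with an adjusted p of up to 0.326, and the Cd52 call was lost in none. Among wells with anti-CD3, both genes were higher with anti-LAIR-1 than with isotype in cells from 3 of 3 mice. This follows from groups that did not overlap, as was so for 24% of all genes tested.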

How the results depend on the processing

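The 2-group calls of the 7 tested genes with anti-CD3 against unstimulated held under every alternative. With anti-CD3, the calls of Cd52, Ly6e and Cd24a for anti-LAIR-1 also held in all 13, and that of Cd55 in all 11 that gave an adjusted p. DESeq2 gave none for Cd55, and it was not tested in thinned libraries. Thinning to the smallest total called 290 genes in place of 507 for anti-LAIR-1 with anti-CD3, and 126 genes and 1 of the 7 for the interaction in place of 191 and 2. It turned the interaction of Ly6a to -0.33. No filter called 5 genes for anti-LAIR-1 without anti-CD3. Leaving out a library gave 293 to 427 genes for anti-LAIR-1 with anti-CD3 (4 to 6 of the 7 genes), 0 to 1 genes in unstimulated cells, and 103 to 186 genes and 1 to 2 of the 7 for the interaction. The counts over all genes were lowest without the anti-CD3 isotype library of mouse 2 (293) and the anti-CD3 anti-LAIR-1 libraries of mice 2 (315) and 3 (334), and for the interaction without the unstimulated isotype library of mouse 2 (118), the unstimulated anti-LAIR-1 libraries of mice 1 (125) and 3 (121), the anti-CD3 isotype libraries of mice 1 (125) and 2 (110) and the anti-CD3 anti-LAIR-1 library of mouse 3 (103). Among uncalled values these fits ranged without anti-CD3 from -0.15 to 0.25 for Cd24a, -0.048 to 0.065 for Thy1, -0.025 to 0.20 for Cd48, -0.079 to 0.11 for Cd52 and -0.040 to 0.35 for Cd55, and from -0.36 to 0.33 for the interaction of Ly6a. With the mouse as a block, 549 genes were called for anti-LAIR-1 in stimulated cells, 0 in unstimulated cells and 218 for the interaction, and no call of the 7 genes changed. Depth limits Cd55 with anti-CD3 and isotype (5 to 11 counts) and keeps Ly6c1, Ly6c2 and Prnp untested.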

Other observations

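Ly6k, a further Ly6 gene and no member of the 10, was chosen after its values were seen. It was lowest in mouse 3 in each of the 4 groups. Unstimulated with isotype it was at 11.9, 12.2 and 5.92 CPM in mice 1, 2 and 3, and with anti-LAIR-1 alone at 9.40, 8.47 and 2.94 CPM. With anti-CD3 it was at 61.9, 34.9 and 10.3 CPM with isotype and at 60.9, 42.0 and 10.6 CPM with anti-LAIR-1. The SD with anti-CD3 and isotype, 25.8 CPM, was close to the mean of 35.7 CPM, whereas Ly6a in the same libraries had 71.8 ± 13.3 CPM and its highest value in mouse 3.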
